A study of Mus musculus with 6 samples.

Results

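Enteroendocrine cells are the hormone-producing cells of the gut epithelium, and 10 genes that define them were compared between Islr knockout and control mouse colon. They are the granins Chga and Chgb, the transcription factor Neurod1, the serotonin-synthesis enzyme Tph1 and the hormones Gcg, Pyy, Insl5, Nts, Cck and Sst. The genes were taken by name, with no measured value in the rule, but they were chosen with earlier results of these data known. Every array probe whose RefSeq accession belongs to one of them was taken. This gave 12 probes for 10 genes, out of 56605 probes and 23462 named genes on the array. Colon RNA of 6 male mice was hybridised to 1 single-colour array each, 3 controls and 3 animals with an Islr knockout. Islr, a gene of stromal cells, codes for a protein with leucine-rich repeats, and the labels give neither the strain, the age, the allele nor the cells in which it was removed. By the sample source all 6 mice, controls included, had drunk 3.5% dextran sulfate sodium, which injures the colonic epithelium, for 5 days and recovered for 1 day, whereas a separate treatment field states that there was no treatment.

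Scattered singly among absorptive and goblet cells, enteroendocrine cells arise from crypt progenitors through Neurog3 and then Neurod1. They pack peptide hormones or serotonin with granins into dense-core granules. In the colon, L cells make proglucagon, peptide YY and, distally, Insl5; enterochromaffin cells make serotonin through Tph1; and D cells make somatostatin.

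The arrays gave a 75th percentile of 4911 to 7111 intensity units, and 69.4% to 75.4% of spots were well above background. Islr, the check of the labels, was lower in every knockout (difference -2.44 on the log2 scale, SE 0.21, limma adjusted p = 0.0171, and 0.0580 without knockout replicate 3). The controls lay in the first row of the slide and the knockouts in the second, so position and genotype cannot be told apart. All 11 pan-epithelial markers were well above background on all 6 arrays. Nothing in the labels says that the animals came from separate litters or cages, and p-values measure the spread between these 6 samples. A value of 0 below is the 75th percentile of the array, and levels are given on the log2 scale relative to it. In such bulk tissue, fewer cells of a type and less RNA per cell cannot be told apart.

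None of the 10 genes changed at a 5% false discovery rate. Of the 9 that could be tested, 0 were called, against 3.82% of 16451 named genes, and of their 10 tested probes 0 were called, against 3.97% of all 35351. With outlier spots kept all 10 genes could be tested and 0 were called, against 4.47% of genes. At an unadjusted p under 0.05, limma gave 1 of the 9 (Nts), against 28.2% of all tested genes. The median difference of the 9 was 0.43 (knockout minus control), beside 0.01 over all tested genes. Leaving out 1 array at a time moved the median of the genes between 0.17, without control replicate 3, and 0.93, without control replicate 1. In the fit of all arrays 6 of 9 were higher in the knockout, beside 51.2% of genes. At least 2-fold higher means were found for 3 of the 9 (Neurod1, Pyy and Insl5), beside 7.86% of genes, and at least 2-fold lower means for 1 (Nts), beside 6.41%. Under scaling to pan-epithelial genes instead, only Insl5 stayed above 0. Genotype groups overlapped for 9 of the 10 genes; the exception was Nts, and 38.3% of genes showed no overlap.

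**Figure D1:**
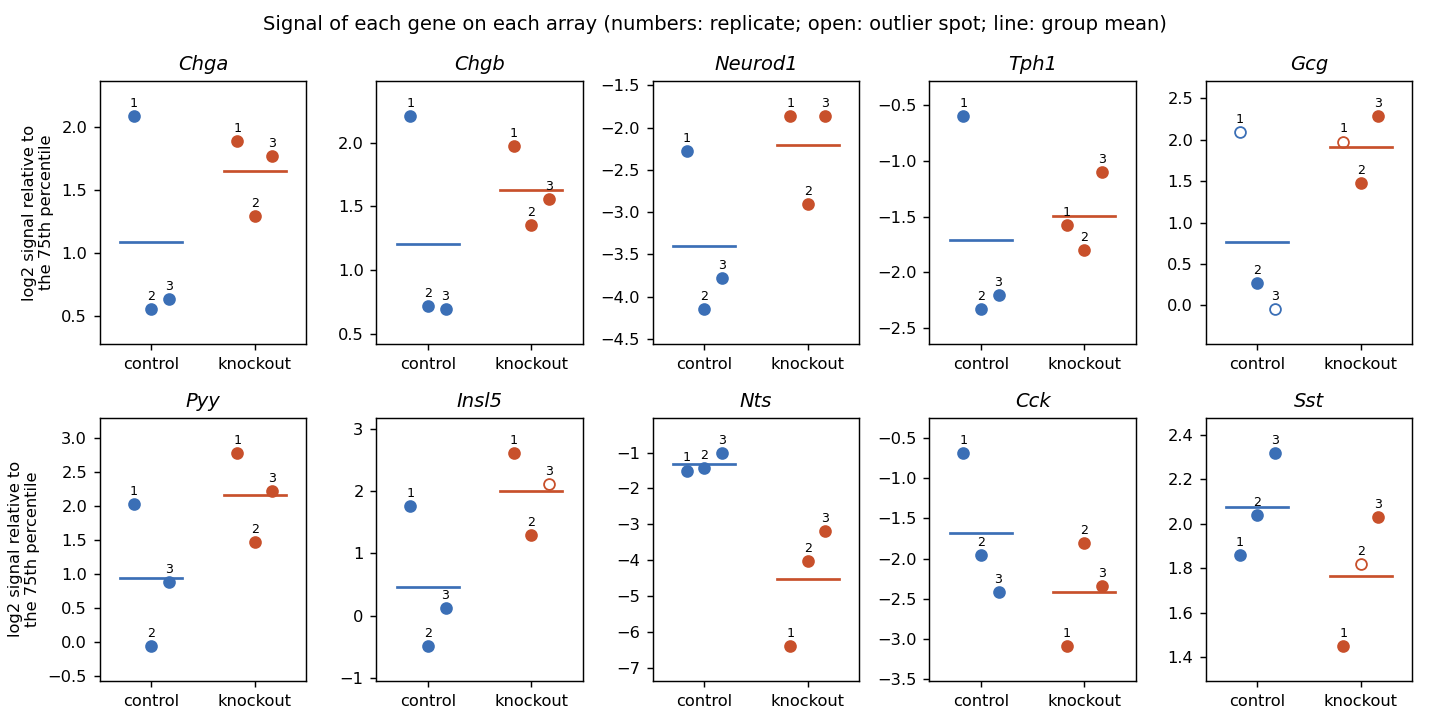
Log2 signal of each gene on each array relative to the array's 75th percentile, with controls in blue, knockouts in red, replicate numbers above the points, open points for outlier spots and lines for group means. Control replicate 1 lies with the knockouts for Chga, Chgb, Gcg and Neurod1, and only Nts has separate groups.

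The proximal promoters of 4 of these genes are printed to set the granins, whose signals ran together, beside a hormone of L cells and the one hormone with separate groups. They are the 250 bases before the RefSeq transcription start, 5′ to 3′ on the gene's strand, in assembly GRCm38.p6. Capitals mark matches on either strand to 5 motifs. The E-box, which factors such as Neurod1 can bind, was searched in the form CAGCTG and, as a second form that proneural factors also recognise, CAGATG. The cAMP response element was searched as its full letters TGACGTCA, and its shorter core, which lies inside the full letters and so overlaps them, was searched as TGACG. The AP-1 site of Fos and Jun proteins was searched as TGANTCA.
Chga, chr12:102554691-102554940, plus strand: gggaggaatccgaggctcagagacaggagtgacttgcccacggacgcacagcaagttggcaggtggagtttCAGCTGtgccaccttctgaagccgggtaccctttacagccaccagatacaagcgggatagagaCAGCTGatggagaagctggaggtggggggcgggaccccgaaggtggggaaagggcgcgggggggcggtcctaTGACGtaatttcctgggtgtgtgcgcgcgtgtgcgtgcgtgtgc
Chgb, chr2:132781392-132781641, plus strand: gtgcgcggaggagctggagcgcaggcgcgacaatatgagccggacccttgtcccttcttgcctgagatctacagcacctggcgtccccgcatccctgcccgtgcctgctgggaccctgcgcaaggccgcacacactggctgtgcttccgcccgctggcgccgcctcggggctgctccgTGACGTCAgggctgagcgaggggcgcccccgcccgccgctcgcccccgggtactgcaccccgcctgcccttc
Gcg, chr2:62483654-62483903, minus strand: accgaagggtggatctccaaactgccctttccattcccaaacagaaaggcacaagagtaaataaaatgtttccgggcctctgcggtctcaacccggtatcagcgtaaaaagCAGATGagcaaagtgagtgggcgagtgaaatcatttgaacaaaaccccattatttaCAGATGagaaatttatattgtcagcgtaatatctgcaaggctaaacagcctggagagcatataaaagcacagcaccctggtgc
Nts, chr10:102490419-102490668, minus strand: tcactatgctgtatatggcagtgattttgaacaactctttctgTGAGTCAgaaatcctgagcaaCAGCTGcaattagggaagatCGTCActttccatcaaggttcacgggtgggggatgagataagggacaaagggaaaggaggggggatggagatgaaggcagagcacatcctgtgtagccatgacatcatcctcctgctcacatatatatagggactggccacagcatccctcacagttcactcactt
Of 32851 windows of this length, 13% hold the first E-box form, 14.4% the second, 17.8% the core, 1.55% the full cAMP response element and 6.75% the AP-1 letters. All 10 genes had a window, and Insl5, Pyy and Tph1 had 2 each for different starts. The first E-box form was found for Chga and Nts, the second for Cck, Gcg and Insl5, and the AP-1 letters for Nts. The core was found for 6 genes, namely Cck, Chga, Chgb, Nts, Sst and Tph1, and the full element for Chgb and Sst. These matches describe letters in the window and were not tested for binding.

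Chromogranin A and chromogranin B are acidic proteins that condense hormones inside granules and mark most enteroendocrine cells. Chga was at 2.09, 0.55 and 0.63 in control replicates 1, 2 and 3 and at 1.89, 1.29 and 1.77 in knockout replicates 1, 2 and 3. Control replicate 1 was the highest of the 6 arrays, the other controls were the lowest, and the knockouts lay between. The difference was 0.56 (SE 0.43, 95% confidence interval -0.47 to 1.60, limma adjusted p = 0.443). Chgb, the granin also made by neurons, was at 2.21, 0.72 and 0.69 in controls and at 1.97, 1.35 and 1.56 in knockouts. The order of the groups was as for Chga, with a difference of 0.43 (SE 0.43, 95% confidence interval -0.61 to 1.46, limma adjusted p = 0.565).

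The Chgb and Cck probes were each printed in 10 spots, so the spread within an array could be set beside the spread between arrays. With 1 array for each mouse, the spread between arrays holds animal and array effects together. For Chgb the SD over spots was 0.026 to 0.073 on an array, whereas the SD between arrays was 0.87 in controls and 0.32 in knockouts. The spots of control replicate 1 ran from 2.11 to 2.30, and those of control replicates 2 and 3 from 0.60 to 0.80. Every spot of control replicate 1 was thus above every spot of the other controls.

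**Figure D2:**
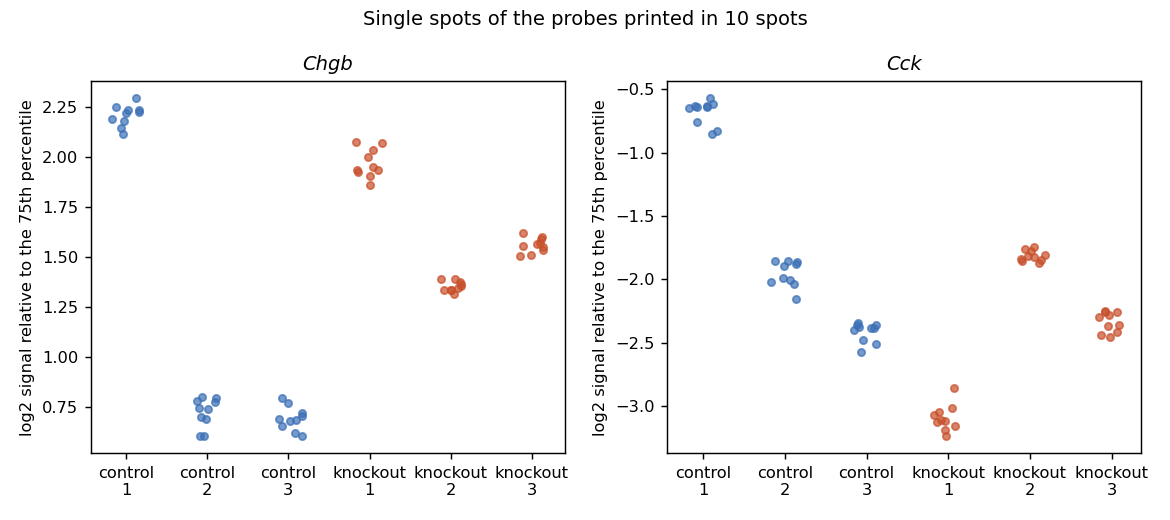
Log2 signal of the 10 single spots of the Chgb and Cck probes on each array, relative to the array's 75th percentile, controls in blue and knockouts in red. Spots of an array lie close together (SD of at most 0.11), and control replicate 1 lies above the other controls for both probes.

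Neurod1 is the basic helix-loop-helix factor that drives endocrine differentiation after Neurog3. It was at -2.28, -4.15 and -3.78 in controls and at -1.86, -2.90 and -1.86 in knockouts. All knockouts were above control replicates 2 and 3, but control replicate 1 was above knockout replicate 2. The difference was 1.20 (SE 0.53, 95% confidence interval -0.08 to 2.47, limma adjusted p = 0.209), a 2.29-fold higher mean signal that did not pass.

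Tph1 catalyses the rate-limiting step of serotonin synthesis in enterochromaffin cells. Its brightest probe was at -0.60, -2.33 and -2.20 in controls and at -1.58, -1.80 and -1.10 in knockouts. The single highest value was that of control replicate 1, and the difference was 0.22 (SE 0.48, 95% confidence interval -0.93 to 1.36, limma adjusted p = 0.804). A second tested probe, built on another transcript record of the gene, differed by 0.18 (SE 0.56, limma adjusted p = 0.865). The third probe passed the background limit on 1 array of each genotype and was not tested.

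Gcg encodes proglucagon, which L cells cleave to the incretin GLP-1 and the intestinal growth factor GLP-2. Its probe was an outlier spot on control replicates 1 and 3 and knockout replicate 1, which left too few usable values for the test. With those spots kept, Gcg was at 2.09, 0.27 and -0.05 in controls and at 1.98, 1.48 and 2.29 in knockouts. The 3 knockouts and control replicate 1 formed the upper values, and the difference was 1.14 (SE 0.56, 95% confidence interval -0.20 to 2.48, limma adjusted p = 0.242). Without control replicate 1 and with outlier spots kept, it was 1.80 and passed (limma adjusted p = 0.0322). Without control replicate 3 instead, it was 0.73.

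Pyy encodes peptide YY, which slows transit and curbs appetite and is released with GLP-1. It was at 2.03, -0.06 and 0.88 in controls and at 2.79, 1.47 and 2.22 in knockouts. Control replicate 1 again lay among the knockouts, above knockout replicate 2, and the difference was 1.21 (SE 0.57, 95% confidence interval -0.15 to 2.57, limma adjusted p = 0.228).

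Insl5 encodes insulin-like peptide 5, an L-cell hormone of the distal colon that acts through the receptor Rxfp4. Its signals were 1.76, -0.49 and 0.12 in controls and 2.62, 1.29 and, at an outlier spot left out of the fit, 2.12 in knockouts. Of the 3 knockouts, 2 exceeded every control, and the difference was 1.49 (SE 0.74, 95% confidence interval -0.36 to 3.34, limma adjusted p = 0.264). Insl5 had the largest positive difference of the 10 genes, a 2.80-fold higher mean signal.

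Nts encodes neurotensin, a peptide of gut N cells that promotes fat absorption and is also made by neurons and by lymphatic endothelium in some tissues. Its processed signal was 2248, 2627 and 3279 intensity units in controls and 58.5, 359.9 and 635.2 in knockouts. Relative to the 75th percentile it was at -1.50, -1.44 and -1.0 in controls and at -6.39, -4.02 and -3.18 in knockouts. Every knockout lay below every control, and the controls lay close together while the knockouts spread widely. The difference was -3.22 (SE 0.77, 95% confidence interval -5.05 to -1.39), a 9.31-fold lower mean signal. Nts was not called, with a limma adjusted p of 0.0644 over all probes (exact permutation p = 0.1, two-sided, below which 3 against 3 cannot go). In knockout replicate 1 the probe was not well above background, and without that replicate the difference was -2.29 (limma adjusted p = 0.0524).

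Nts and Pyy went apart within the arrays. The Nts signal minus the Pyy signal of the same array was -3.53, -1.38 and -1.87 in controls and -9.18, -5.49 and -5.41 in knockouts. This within-array difference changed by -4.43 in knockouts, with no overlap. The exact permutation p of 0.1 (two-sided, the smallest possible) carries no weight, as the pair was chosen after both values were seen. Nts alone already showed no overlap, and its value in knockout replicate 1 was not well above background. The change lay between -5.07 and -3.19 when any single array was dropped.

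Most tested markers of cells that can also make neurotensin had lower means in the knockouts. Over all tested genes 8030 of 16451 were lower, and 3.82% were called in either direction. Of 12 enteric neuron markers 9 were tested, 8 of them were lower, and their median was -0.42. The mean level of all 12 was 0.27 to 0.57 in controls and -0.40 to 0.03 in knockouts. One was called, the neuropeptide gene Npy (-2.69, SE 0.44, limma adjusted p = 0.0355), whereas the pan-neuronal gene Elavl4 differed by -0.02 (SE 0.14). Npy lost its call (adjusted p 0.0521 to 0.0971) in every fit with 1 array left out except that without control replicate 1, and with no filter on dim probes (0.0557) or probes averaged per gene (0.0505). Of 7 lymphatic endothelium markers, added after the Nts values were seen, 5 were tested, all 5 were lower and 0 were called; their median was -0.91. The mean of these 7 was -0.39 to -0.14 in controls and -1.14 to -0.62 in knockouts. The lymphatic factor gene Prox1 differed by -0.28 (SE 0.25). No defining marker of either list was absent, and their part in the Nts values was not tested.

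Cck encodes cholecystokinin, which I cells and neurons make and which contracts the gallbladder. It was at -0.68, -1.96 and -2.42 in controls and at -3.09, -1.81 and -2.34 in knockouts. Control replicate 1 was the highest and knockout replicate 1 the lowest, while the other 4 arrays were mixed. The difference was -0.74 (SE 0.51, 95% confidence interval -1.95 to 0.47, limma adjusted p = 0.391), and it was -0.24 without control replicate 1.

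Sst encodes somatostatin, the inhibitory peptide of D cells and of some enteric neurons. It was at 1.86, 2.04 and 2.32 in controls and at 1.45 and 2.03 in knockout replicates 1 and 3, with 1.82 at an outlier spot of knockout replicate 2. It varied least of the 10 genes between arrays, and the groups overlapped. The difference was -0.33 (SE 0.26, 95% confidence interval -0.97 to 0.31, limma adjusted p = 0.453).

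Control replicate 1 stood apart from the other controls across most of these genes. It was the highest control for 8 of the 10, by 1.5 to 1.98 on the log2 scale over the mean of control replicates 2 and 3, and not for Sst (-0.32) or Nts (-0.28). For 7 genes (Chga, Chgb, Neurod1, Tph1, Gcg, Pyy and Insl5) all 3 knockouts exceeded control replicates 2 and 3. The shares of all genes that meet these conditions were not computed. With all controls included, 38.3% of genes already showed no overlap, so these counts are a description. The order was not particular to hormone genes. Goblet cell genes had mean levels of 2.95, 0.28 and 1.91 in control replicates 1, 2 and 3. Colonocyte genes were at 1.52, -0.34 and 0.89, and pan-epithelial genes at 2.25, 0.26 and 1.83. Without control replicate 1 the differences were 1.06 for Chga, 0.93 for Chgb, 1.76 for Neurod1, 1.75 for Pyy, 2.14 for Insl5 and 0.77 for Tph1. Their limma adjusted p then lay between 0.0523 (Neurod1) and 0.110 (Tph1), so no gene among the 9 testable ones was called. Without control replicate 2 the differences were instead 0.29 for Chga, 0.18 for Chgb, 0.83 for Neurod1, 0.71 for Pyy, 1.01 for Insl5 and -0.09 for Tph1. Without control replicate 3 they were 0.33 for Chga, 0.17 for Chgb, 1.01 for Neurod1, 1.17 for Pyy, 1.32 for Insl5 and -0.03 for Tph1. The array of control replicate 1 also had more outlier spots than those of the other controls, 13.6% against 3.30% and 3.94%. Among the brightest 10% of spots its share was 46%, exceeded by that of knockout replicate 1 alone, with 56.8% (16% over all spots). The part of these spots in the values was not tested.

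The 5 genes outside all lists with the most similar course over the 6 arrays to the mean centred profile of the 9 tested genes were Scube2 (Pearson r = 0.996), Fgf12 (0.989), Abca8a (0.989), Ppil6 (0.983) and Omg (0.972), out of 12456 genes compared. The profile itself was 0.75, -0.58 and -0.32 in controls and -0.04, -0.16 and 0.34 in knockouts. None of these 5 genes differed between the genotypes at a 5% false discovery rate (limma adjusted p 0.713 to 0.994). With 6 points shared by all genes, these correlations are a description. Against the same profile, Tph1 itself had r = 0.991, Chga 0.875, Pyy 0.696, Insl5 0.695, Cck 0.515, Nts -0.04 and Sst -0.243. Each of these genes is part of the profile it is set against.

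The signal of pan-epithelial genes differed between the arrays, and its part in the hormone values was not tested. The mean level of the 11 pan-epithelial genes was 2.25, 0.26 and 1.83 in controls and 2.97, 2.62 and 2.62 in knockouts. All knockouts exceeded all controls, and control replicate 2 was far below the rest. The 8 tested pan-epithelial genes were all higher, with a median of 1.32 and 0 called; so were the 6 tested colonocyte genes (median 1.42) and the 6 tested goblet cell genes (median 0.96), again with 0 called. When each array was centred on its pan-epithelial mean, the median over all probes moved to -1.30. On that scale Pyy differed by -0.08 (95% confidence interval -1.50 to 1.35), Neurod1 by -0.09, Gcg by -0.15 with outlier spots kept and Insl5 by 0.14. Chga differed by -0.72 and Chgb by -0.86. The signs of Chga, Chgb, Neurod1, Tph1, Gcg and Pyy were thus the reverse of those under the 75th percentile. Nts (-4.51, limma adjusted p = 2.43e-07) and Cck (-2.03, limma adjusted p = 0.0485) were called there, as were 11.2% of all probes, of which 1.76% were higher. Sst was at -1.68 (95% confidence interval -3.27 to -0.09, limma adjusted p = 0.115). The SE on this scale was 0.73 for Nts, Cck, Chga and Pyy alike, and 0.81 for Sst. The same offset of an array is subtracted from all its probes, and the fit takes its spread as that of each gene. The adjusted p-values and intervals on this scale are therefore only a description.

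**Figure D3:**
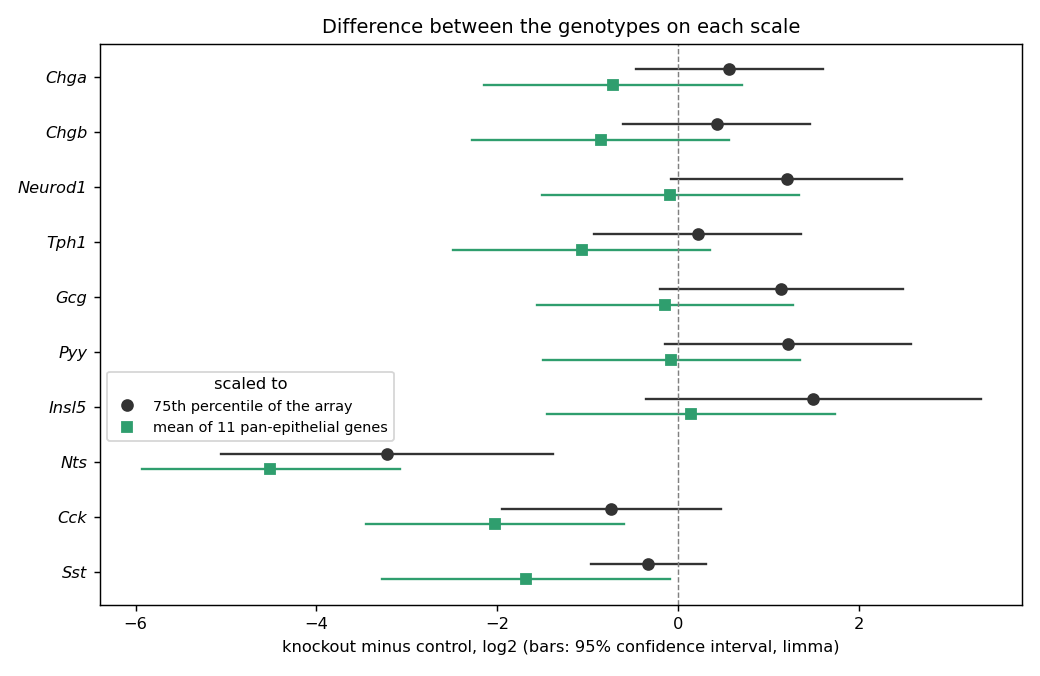
Knockout minus control difference of each gene on the log2 scale with its 95% confidence interval from limma, scaled to the 75th percentile (dark circles) or to the mean of 11 pan-epithelial genes (green squares); Gcg is shown with outlier spots kept. On the second scale only Insl5 lies above 0, and Nts is the lowest on both.

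Other genes of the endocrine programme were taken from lists that had been written down with earlier results of these data known. Of 9 further gut hormone genes, 6 were tested, 4 were higher and 0 were called (median 0.27). The lowest adjusted p belonged to Cartpt, a neuropeptide gene (-1.59, SE 0.55, limma adjusted p = 0.129), and Gast, which encodes gastrin (0.73, SE 0.28, limma adjusted p = 0.151). Gip passed the background limit on 1 array of each genotype, Ucn3 on none and Iapp on 1 knockout array.

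Of 21 granule and prohormone-processing genes 20 were tested, 13 were lower, 0 were called and the median was -0.26. The prohormone convertase genes Pcsk1 and Pcsk2 differed by -0.42 (SE 0.21) and -0.57 (SE 0.24), and Cpe, which trims the cleaved peptides, by 0.13 (SE 0.19). Scg5, a chaperone of Pcsk2, had the lowest adjusted p (-0.66, SE 0.19, limma adjusted p = 0.0910), followed by the synaptotagmin Syt13 (-1.14, SE 0.31, limma adjusted p = 0.0933). Many of these genes are also expressed by enteric neurons.

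Among 20 transcription factors of the endocrine lineage 13 were tested, 8 were higher, 0 were called and the median was 0.13. Sox4, a progenitor factor, differed by -0.76 (SE 0.22, limma adjusted p = 0.0915) and Isl1 by -1.22 (SE 0.36, limma adjusted p = 0.0953). Lmx1a, which acts in enterochromaffin cells, was at -2.80, -5.07 and -5.42 in controls and at -2.40, -3.32 and -2.82 in knockouts, with a difference of 1.59 (SE 0.68, limma adjusted p = 0.194). Neurog3 passed the background limit on 2 arrays of each genotype, and Pax4 and Nkx2-2 on 1 knockout array each.

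For serotonin synthesis, storage and release 11 of 12 genes were tested, 9 were higher, 0 were called and the median was 0.48. Maoa, which degrades serotonin, differed by 1.92 (SE 0.42, limma adjusted p = 0.0559), and Slc6a4, the serotonin transporter, by 2.30 (SE 0.67, limma adjusted p = 0.103, with the outlier spot of knockout replicate 1 left out). Both passed without control replicate 1, Maoa at 2.34 (limma adjusted p = 0.0307) and Slc6a4 at 2.96 (limma adjusted p = 0.0250). In that fit 5.83% of all probes were called. Neither passed with any other array left out (limma adjusted p 0.0645 to 0.152 for Maoa, and 0.148 to 0.249 for Slc6a4 where it could be fitted). On the pan-epithelial scale they differed by 0.63 (limma adjusted p = 0.427) and 1.13 (limma adjusted p = 0.221). Ddc, which completes serotonin synthesis after Tph1 and is also made by absorptive cells, differed by 1.64 (SE 0.56, limma adjusted p = 0.124). Trpa1, an irritant-gated channel of enterochromaffin cells, differed the other way, by -2.36 (SE 0.75, limma adjusted p = 0.107).

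Of the 11 tested sensing genes and 17 tested receptor genes around these hormones, 1 was called, beside 3.82% of all tested genes. Of 17 nutrient and bile acid sensing genes 11 were tested, 7 were higher and the median was 0.38. Avpr1b, a vasopressin receptor gene found in enteroendocrine cells, rose by 1.99 (SE 0.30, limma adjusted p = 0.0319). It lost its call without control replicate 2 or 3 or knockout replicate 1 or 3 (adjusted p 0.0745 to 0.0905), with no filter on dim probes (0.0502), and on the pan-epithelial scale (0.70, adjusted p = 0.378). Ffar2, the receptor for short-chain fatty acids, differed by 0.38 (SE 0.26), and Gpr119, a lipid sensor of L cells, by -0.02 (SE 0.23). Of 23 hormone and serotonin receptor genes 17 were tested, 10 were lower, 0 were called and the median was -0.26. Htr7, a serotonin receptor gene, differed by -1.11 (SE 0.24, limma adjusted p = 0.0540), and Sort1, a neurotensin-binding sorting receptor, by 1.03 (SE 0.25, limma adjusted p = 0.0874). The GLP-2 receptor gene Glp2r differed by -0.02 (SE 0.30); Glp1r was well above background on 1 control array and Rxfp4, the receptor for Insl5, on none.

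**Figure D4:**
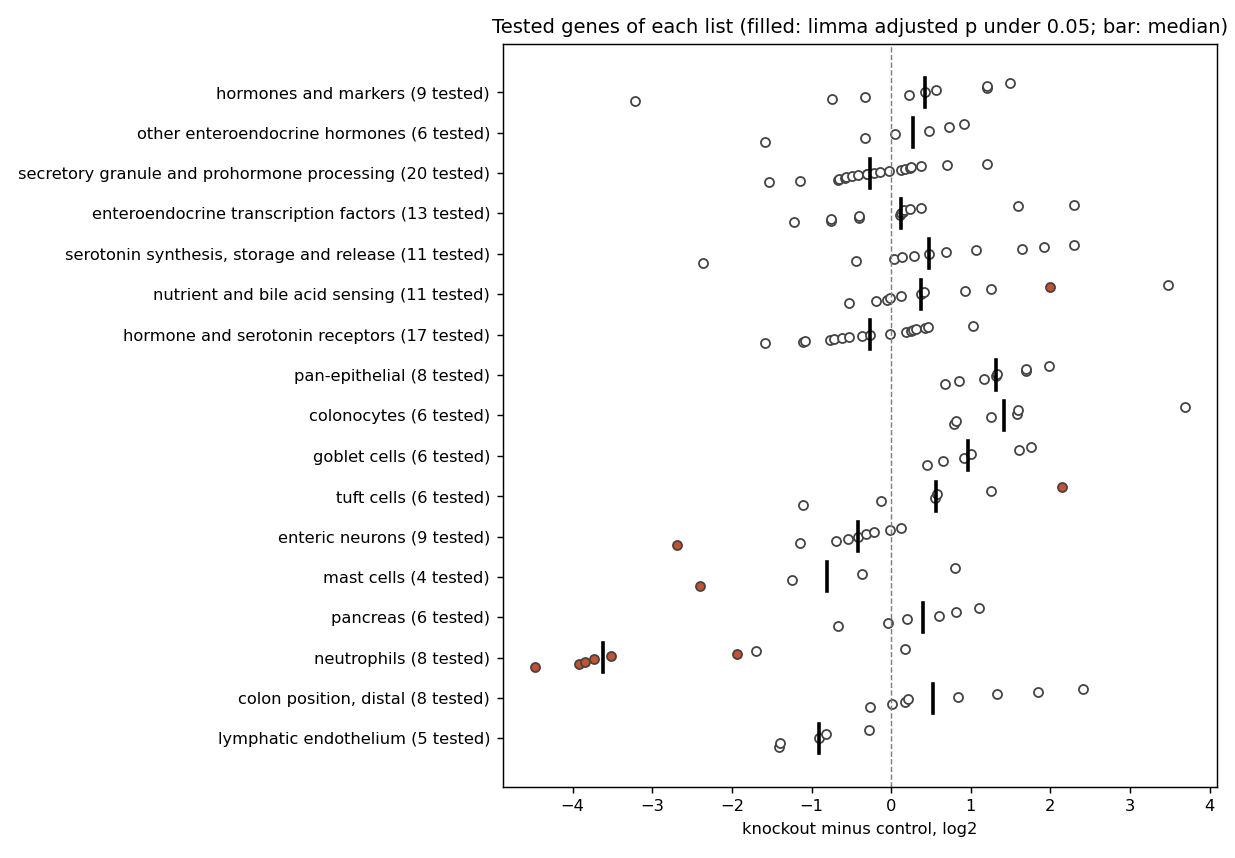
Knockout minus control difference on the log2 scale of every tested gene of each list, with filled points for genes with a limma adjusted p under 0.05 and a bar at the list's median. The hormones and markers hold no filled point, and their lowest value is Nts at -3.22.

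Other cells that make single ones of these products were checked by their own markers. Over all tested genes 3.82% were called. Mast cells, which also express Tph1, had 4 of 10 markers tested, 3 of them lower; the histamine-synthesis gene Hdc was called (-2.40, SE 0.40, limma adjusted p = 0.0441). Hdc lost its call (adjusted p 0.0633 to 0.0661) in every fit with 1 array left out except that without control replicate 1, and with no filter on dim probes (0.0689). The mean of its tested probes gave -1.66 (limma adjusted p = 0.181). The defining mast cell genes Cpa3, Fcer1a and Ms4a2 passed the background limit on 2 control arrays each and on no knockout array. Mcpt2 passed it on 2 control and 3 knockout arrays and differed by -0.36 (SE 0.97). Tpsb2 was higher in the knockout, by 0.80 (SE 0.23, limma adjusted p = 0.0933), with every knockout above every control. The mean level of 9 mast cell genes was -2.54, -3.97 and -2.32 in controls and -3.84, -3.73 and -4.20 in knockouts, and its part in the Tph1 values was not tested. Pancreatic islets also make Gcg, Sst and Chga; of 9 pancreas markers 6 were tested and 0 were called, Cpa1 and Pnlip were well above background on no array, Ins1 differed by 0.60 (SE 0.23, limma adjusted p = 0.151) and Cela1 by 1.1 (SE 0.23, limma adjusted p = 0.0517).

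**Figure D5:**
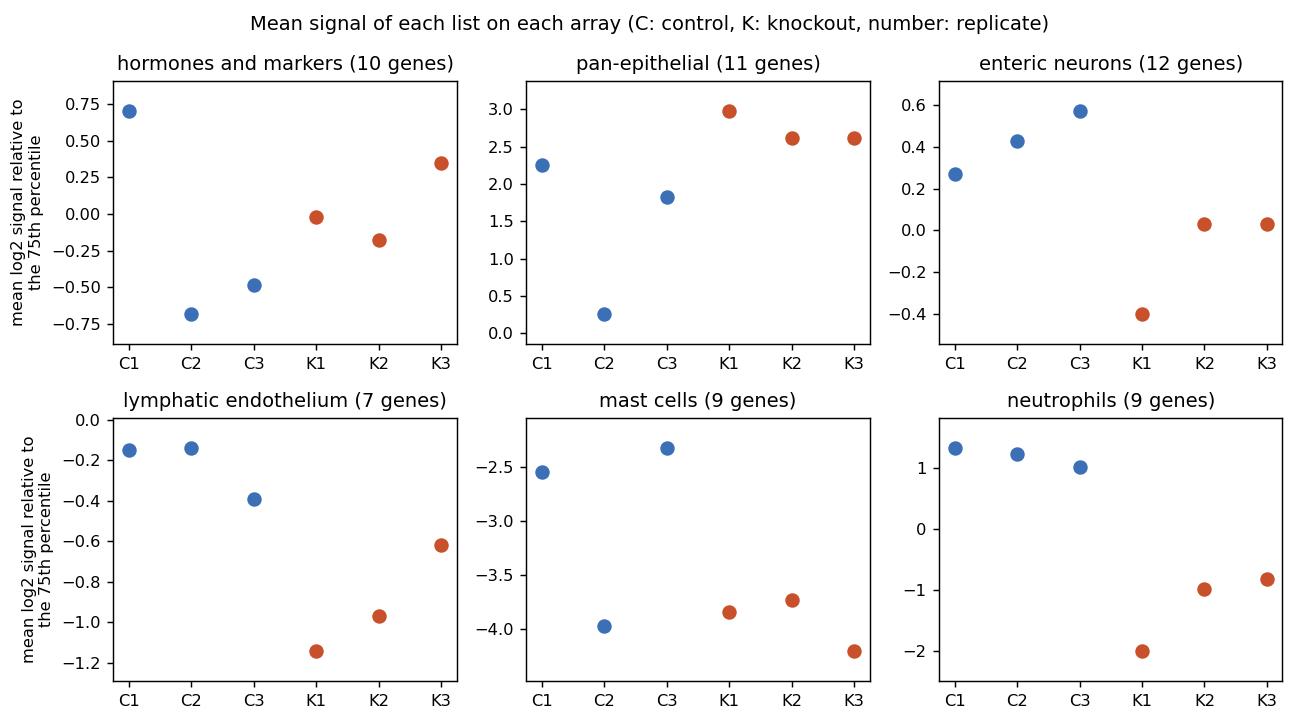
Mean log2 signal of each list on each array relative to the 75th percentile, over the genes with a probe, controls in blue and knockouts in red. The hormones and markers are highest in control replicate 1, and pan-epithelial genes are lowest in control replicate 2. Pan-epithelial, enteric neuron, lymphatic endothelium and neutrophil genes each separate the genotypes.

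Neighbouring cell types gave the following values in the same arrays, where 3.82% of all tested genes were called. Of 6 tested tuft cell genes 4 were higher (median 0.56) and the taste channel gene Trpm5 was called (2.15, SE 0.27, limma adjusted p = 0.0251); it lost its call without control replicate 2 or 3 or knockout replicate 1 or 3 (adjusted p 0.0524 to 0.0661) and on the pan-epithelial scale (0.86, adjusted p = 0.284). Of 8 tested neutrophil genes 7 were lower and 6 were called, with a median of -3.62; each of the 6 lost its call in at least 1 fit with an array left out. Position along the colon, which bears on where L cells lie, was read from 7 genes of the distal Hox code, of which 6 were higher and 0 were called, with a median of 0.21. Hoxd10, Hoxd11, Hoxd12, Hoxd13 and Hoxa11 differed by 0.18, 0.01, 0.84, 0.21 and -0.27. Hoxb13, a gene of the hindgut end, differed by 2.41 (SE 0.62, limma adjusted p = 0.0738) and Hoxa13 by 1.33 (SE 0.38, limma adjusted p = 0.0908, and 0.0436 without control replicate 1). Hoxb13 was at 0.68, -1.33 and 0.74 in controls and at 3.11, 1.79 and 2.41 in knockouts, and its part in the Insl5, Pyy and Gcg values was not tested.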

How the data were processed

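Colon RNA of 3 control and 3 Islr knockout mice was measured on 1 array each; replicate numbers only name animals. Per the file headers, the deposited processed signal is an intensity from Feature Extraction 11.5.1.1 (the labels name 10.7), background-subtracted, red channel only (the labels name Cy3), on array design 074809, unscaled between arrays. The deposited value table holds the same intensities, averaged over spots (log2 correlation of at least 0.9999993 on every array), and served as an alternative.

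Signals were converted to log2 with no pseudocount and the 75th percentile of the array was subtracted. Outlier spots (3.26% to 16.0% per array; 10.7% to 56.8% of the brightest 10%) were left out. A probe was tested if well above background on all 3 arrays of a group, with at least 2 usable values per group: 35351 of 56605 probes. limma 3.58.1 (lmFit, eBayes; R 4.3.3) compared genotypes, two-sided, with Benjamini-Hochberg adjustment over all tested probes at 5%. Number of arrays limits the precision. RefSeq accessions (GRCm38.p6) named 33767 probes (59.7%), and the brightest tested probe stood for a gene. The procedure was checked on simulated data with independent noise for each probe. That simulation held no shift shared by the probes of an array, so it does not cover such effects.

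Alternatives were background correction, scaling, dim filter, outlier spots, array weights, value table, probe averaging and leaving out each array; the normexp alternative used the median spot signal, as the files hold no mean signal. Named genes were the 10 members, Islr, called genes of each list or else its 2 with the lowest adjusted p, the 5 most similar genes, and defining markers of other cells; further genes named beside these were chosen after their values were seen. Members and lists were chosen with earlier results of these data known. Results for some genes are not reported here.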

Additional observations from a re-analysis of the deposited data

How the results depend on the processing

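With 3 arrays a group, the 95% confidence interval held 0 for 8 of the 9 tested genes, all but Nts. With outlier spots kept the Insl5 interval (0.08 to 3.00) did not hold 0 either, and under pan-epithelial centring those of Nts, Cck and Sst did not. Intervals and adjusted p-values under that centring take an array offset shared by all probes as the spread of each gene. The number of probes called (1403, 39.1% of them higher) was 2558 under normexp background correction (51.1% higher), 2185 under quantile normalization, 3972 under pan-epithelial centring (1.76% higher), 484 with no filter on dim probes and 8119 with array weights, and 40 to 2114 with 1 array left out. Gcg apart, the number of the other 9 genes called was 1 under normexp, 2 under pan-epithelial centring, 3 with array weights and 0 under every other alternative. Gcg, testable only with outlier spots kept, was called with array weights and without control replicate 1 (limma adjusted p = 0.0322). Nts was called under normexp (-2.73), pan-epithelial centring (-4.51) and array weights (-2.57), and stayed lower in all 14 alternatives; its adjusted p ran from 2.43e-07 to 0.156. With array weights Pyy (1.64), Neurod1 (1.62) and, outlier spots kept, Gcg (1.65) were called, and Cck (-2.03) was called under pan-epithelial centring. That centring moved the median of the 9 tested genes to -0.86 and reversed Chga (-0.72), Chgb (-0.86), Pyy (-0.08), Tph1 (-1.07), Neurod1 (-0.09), Gcg with outlier spots kept (-0.15), Gast (-0.55), Sort1 (-0.54), Krt18 (-0.36), Clca1 (-0.37), Muc2 (-0.29), Cela1 (-0.18) and Ins1 (-0.68); it subtracts epithelial genes that were themselves higher in knockouts. With 1 array left out, Tph1 ranged from -0.09 to 0.77, and Gcg with outlier spots kept from 0.73 to 1.80. The cause of the other shifts was not tested. Sst and Insl5 kept their direction in all 12 alternatives that could be fitted, and Cck in all 14. No paired analysis was possible because the labels give each animal a code and no replicate number; the numbers used here follow the order of deposit and pair no animals.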
